A study of Mus musculus with 6 samples.

Results

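The expression of genes in intestinal crypts was compared between 4 irradiated libraries and 2 libraries without irradiation. Crypts of C57BL/6 mice fell into 3 groups with 2 libraries apiece. The Control group had no abdominal irradiation (replicates 2 and 3). AIR crypts were collected on day 3 after abdominal irradiation (replicates 1 and 3), and AIR_MPLA crypts on the same day after irradiation plus MPLA (replicates 1 and 3), a detoxified lipid A that acts on Toll-like receptor 4. The radiation dose, the MPLA dose and schedule, and the age and sex of the mice were not stated in the labels, and no library analysed here had MPLA without irradiation. Since the labels do not tie the replicates to separate animals, p-values measure no more than the variation among these libraries, and that variation may be technical. A gene counted as lying on one side when its FPKM (fragments per kilobase of transcript and per unit of sequencing depth, a level per length) in all 4 irradiated libraries was above, or in all 4 below, both Control libraries. Of the 10415 genes that reached 1 FPKM in at least 2 of the 6 libraries, 2438 (23.4%) met this rule, 878 above Control (8.43%) and 1560 below it (15%).

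The crypt is the pit of the intestinal lining in which stem cells at the base divide, their daughters multiply as they move upward, and Paneth cells between the stem cells secrete antimicrobial peptides. Ionizing radiation breaks DNA, stops or kills dividing crypt cells through p53 and other routes, and is followed over days by regrowth from surviving epithelial cells, during which genes of the fetal gut and of injury are switched on. Lymphocytes that live between epithelial cells are also radiosensitive. These statements are general background and not results of the present libraries.

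Summed FPKM ranged from 381669 to 492247 over the 6 libraries, 9842 to 10179 genes reached 1 FPKM in each, and the read depth is unknown. Control replicate 2 had its own file, used throughout, and a column of the series table matched to it by its number, in which 14 values above 0 equalled those of the file; over the tested genes the series column correlated at 0.997 with Control replicate 3 and the file at 0.972, as a description. With the series-table values, 811 genes remained above Control (7.79%) and 1351 below it (13.0%). All libraries carried epithelial RNA: Epcam lay between 509.7 and 672 FPKM, with a log2 difference of -0.25 ± 0.16 (SE) that did not pass the test (adjusted p = 0.377, limma). Defining markers of fibroblasts and endothelium (Col1a1, Col3a1, Acta2, Des, Pecam1, Cdh5 and Kdr) were at or below 0.480 FPKM in every library. Other members of these lists were higher: Vim lay between 2.88 and 5.59 FPKM, Lyve1 was at 1.47 and 0.615 FPKM in Control and 1.70 to 3.11 FPKM in irradiated libraries (adjusted p = 0.0796, limma), and Esam fell from 1.48 and 1.97 to 0.306 to 0.719 FPKM (-0.86 ± 0.15, adjusted p = 0.0225). Summed markers of T cells and intraepithelial lymphocytes were 159 and 236 FPKM in Control and 27.5 to 55.8 FPKM in the irradiated libraries, those of neutrophils 0.620 and 0.952 against 1.16 to 10.3 FPKM, and those of hepatocytes 10.8 and 10.3 against 23.7 to 67.2 FPKM. The part of these cells in the results below was not tested, except where a value is given. In bulk samples, fewer cells of a type and less RNA per cell cannot be told apart.

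To ask which genes differed from Control across irradiation with and without MPLA, the mean of the AIR and AIR_MPLA means was compared with the Control mean on log2(FPKM + 1) values (limma, Benjamini-Hochberg adjustment over all tested genes at 0.05). The test called 748 genes (7.18%), 271 higher (2.60%) and 477 lower (4.58%) in irradiated crypts, and 2768 genes had an unadjusted p under 0.05. Of the called genes 710 also lay on one side, 259 above and 451 below, whereas 1728 genes on one side were not called. The split of genes on one side was 1538 above and 1602 below with GC correction, and 1166 above and 1301 below with median-ratio scaling. Of the 271 genes called higher, 63 were under 1 FPKM in both Control libraries; such a gene entered the test only through the irradiated libraries, where it had to be higher. In the lists described below this holds for 3 of the 7 regenerative genes, 3 of the 15 interferon genes and 3 of the 7 p53 targets called higher. All log2 differences refer to log2(FPKM + 1), so changes of genes with low levels are understated, and the median over all tested genes was -0.07. Among genes on one side, 210 were at least 2-fold higher and 187 at least 2-fold lower on this scale. Called genes that were lower had a median transcript GC content of 52.4%, those that were higher 48.5%, and all tested genes 49.7%. Removing the trend with GC content gave 624 higher and 582 lower, and median-ratio scaling 328 higher and 334 lower. The number of calls was 1414 without Control replicate 2, 171 without AIR replicate 1, 433 without AIR replicate 3, 285 without AIR_MPLA replicate 1 and 220 without AIR_MPLA replicate 3. Taking Control replicate 2 from the series table gave 4654, 44.7% of the tested genes, with 742 of the 748 called the same way. At the edge of the rule for one side, among genes with at least 5 FPKM, Haus8 (4.93 FPKM in both Control replicate 2 and AIR_MPLA replicate 3 after rounding) lay just inside and Neurl4 (7.82 FPKM in those libraries after rounding) just outside.

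The largest rise was that of Ly6a (chr15:74994877-74998031, GRCm38.p6), which encodes the surface protein Sca-1 and marks injured and fetal-like gut epithelium. In the order Control replicates 2 and 3, AIR replicates 1 and 3 and AIR_MPLA replicates 1 and 3, which is kept for every gene below, Ly6a was at 1.89 and 4.03, 166 and 62.3, and 45.9 and 104 FPKM. Every irradiated library was far above both Control libraries, and the irradiated groups overlapped (log2 difference 4.48 ± 0.48, adjusted p = 0.00674, limma). S100a6 (chr3:90612894-90614414), a calcium-binding protein of the S100 family, was at 13.9 and 22.3, 454 and 210.2, and 222 and 306 FPKM. It rose by 3.93 ± 0.34 (adjusted p = 0.00484, limma), again without overlap with Control. Anxa10, a calcium-dependent phospholipid-binding annexin, went from 0.0424 and 0.0840 FPKM in Control to 23.2 and 6.99 in AIR and 4.12 and 3.73 in AIR_MPLA (2.96 ± 0.39, adjusted p = 0.0118). Ly6d and Gml, members of the Ly6 family on the same chromosome as Ly6a, rose by 2.89 ± 0.48 and 2.58 ± 0.44. Reads of such related genes may be shared between copies, so the split within the family is uncertain. Without Control replicate 2 or without Control replicate 3, Ly6a, Ly6d, Anxa10 and Gml did not pass (largest adjusted p 0.0624, 0.138, 0.0935 and 0.147), and Gml also did not pass without AIR replicate 1; S100a6 passed whichever library was left out. Alb, the serum albumin of hepatocytes, was also among the largest rises, at 0.107 and 0.163, 3.30 and 13.7, and 12.8 and 14.2 FPKM (3.24 ± 0.43, adjusted p = 0.0118), as was Mup7, a major urinary protein of hepatocytes, listed at 0 in both Control libraries and at 1.60 and 7.15, and 7.46 and 7.85 FPKM in the irradiated ones. For both, the lowest irradiated library was AIR replicate 1. Summed hepatocyte markers, which include both genes, were 23.7 FPKM in that library and 59.0 to 67.2 FPKM in the other irradiated ones, and the part of hepatocyte RNA in these rises was not tested. Neither passed without Control replicate 2 or Control replicate 3 (largest adjusted p 0.0950 and 0.116).

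**Figure D1:**
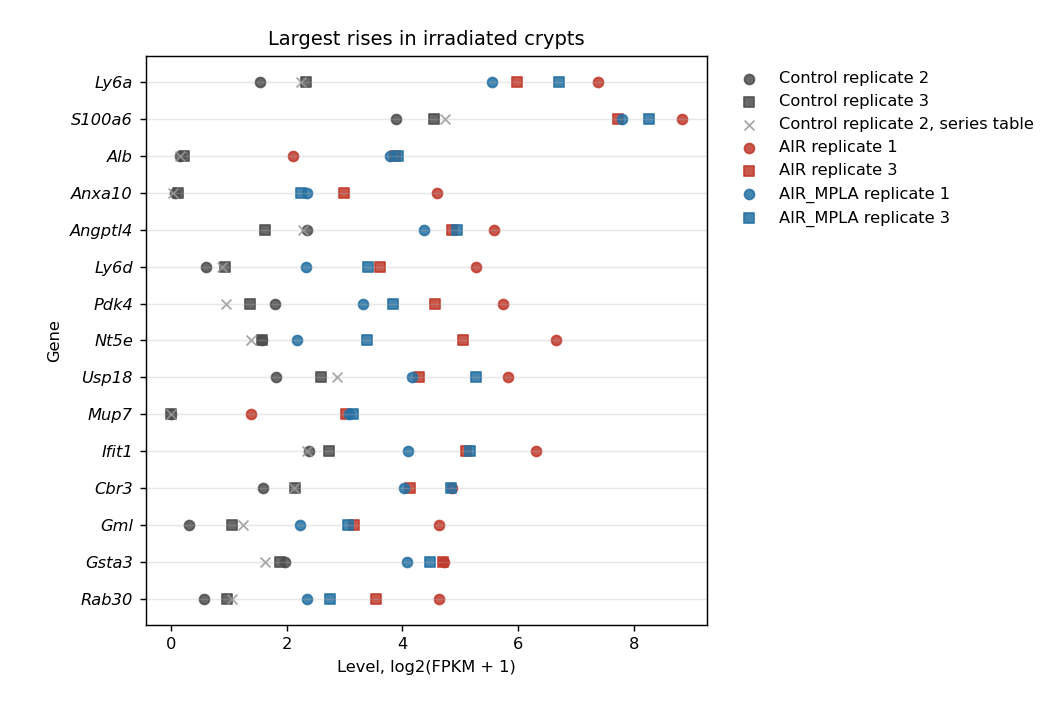
The 15 genes with the largest rises, with the level in each library as log2(FPKM + 1) on the horizontal axis; circles and squares mark the lower and the higher replicate number of a group, and crosses the series-table values of Control replicate 2. All 4 irradiated libraries lie to the right of all Control values for each of these genes, and AIR replicate 1 is the highest library for Ly6a (166 FPKM), S100a6 (454 FPKM) and Nt5e (100.2 FPKM).

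Part of the genes of regenerative and fetal-like epithelium rose. Of 21 tested members of the list 7 passed the test upward (Ly6a, S100a6, Anxa10, Ly6d, Nt5e, Clu and Anxa3) and none downward, 15 lay above Control and none below, and the median log2 difference was 1.01 against -0.07 over all genes. Clu, clusterin, which marks the rare revival stem cells described in the injured mouse intestine, was at 0.0660 and 0.120, 8.58 and 2.01, and 4.12 and 5.88 FPKM. It was close to 0 in both Control libraries and between 2.01 and 8.58 FPKM in the irradiated ones (2.37 ± 0.42, adjusted p = 0.0256, limma). Nt5e, or CD73, the ectoenzyme that turns extracellular AMP into adenosine, was at 1.97 and 1.97, 100.2 and 32.1, and 3.50 and 9.46 FPKM. All irradiated libraries were above Control (2.75 ± 0.48, adjusted p = 0.0251), but AIR_MPLA was lower than AIR by the limma test (-3.08 ± 0.56, adjusted p = 0.0176). Anxa1, which resolves inflammation, was at 0.0563 and 0, 31.5 and 4.30, and 1.51 and 2.31 FPKM and did not pass (adjusted p = 0.0570). The keratins Krt7, Krt18 and Krt19 did not lie on one side. Areg, an EGF receptor ligand, rose by 2.03 ± 0.43 (adjusted p = 0.0390), and Errfi1, a feedback inhibitor of the EGF receptor, by 1.50 ± 0.20 (adjusted p = 0.0125); they were the 2 of 10 tested genes of EGF receptors and ligands that passed. Leaving out Control replicates 2 and 3, AIR replicates 1 and 3 and AIR_MPLA replicates 1 and 3 in turn left 1, 4, 7, 11, 7 and 5 regenerative genes called, with Clu not passing without Control replicate 2, Control replicate 3 or AIR_MPLA replicate 3 (largest adjusted p = 0.144) and Nt5e not without Control replicate 2, Control replicate 3 or AIR replicate 1 (0.148). In the same order the EGF count was 2, 1, 1, 3, 1 and 1.

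Many type I interferon response genes were higher in irradiated crypts. Interferons alpha and beta act through a receptor whose transcription factors, STAT2 and IRF9 among them, bind the interferon-stimulated response element in promoters of antiviral genes. Of 41 tested members 15 rose and none fell, 30 lay above Control with either set of values for Control replicate 2, none lay below, and the median log2 difference was 1.23. Promoter sequences of 4 of the 15 are shown because they carry a core of this element, GAAANNGAAA or its reverse complement TTTCNNTTTC, printed in capitals within 300 bases around the gene start of the RefSeq table, 5′ to 3′ on the strand of the gene (GRCm38.p6). For Ifit3 the gene position used here starts at 34583119, upstream of this window. They are those of Ifit1 (chr19:34640639-34640938, plus strand), Ifit3 (chr19:34583279-34583578, plus strand), Bst2 (chr8:71537423-71537722, minus strand) and Rsad2 (chr12:26456403-26456702, minus strand):
Ifit1: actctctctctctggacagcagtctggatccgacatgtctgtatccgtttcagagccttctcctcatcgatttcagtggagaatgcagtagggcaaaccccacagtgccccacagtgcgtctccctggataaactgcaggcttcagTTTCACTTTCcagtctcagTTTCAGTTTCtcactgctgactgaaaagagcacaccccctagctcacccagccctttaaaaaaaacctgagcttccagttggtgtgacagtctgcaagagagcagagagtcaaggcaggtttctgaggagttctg
Ifit3: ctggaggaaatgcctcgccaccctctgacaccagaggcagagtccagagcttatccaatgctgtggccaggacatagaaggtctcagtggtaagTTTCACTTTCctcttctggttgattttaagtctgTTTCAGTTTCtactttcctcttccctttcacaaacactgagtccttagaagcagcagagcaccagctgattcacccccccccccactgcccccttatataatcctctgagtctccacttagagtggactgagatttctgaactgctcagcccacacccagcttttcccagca
Bst2: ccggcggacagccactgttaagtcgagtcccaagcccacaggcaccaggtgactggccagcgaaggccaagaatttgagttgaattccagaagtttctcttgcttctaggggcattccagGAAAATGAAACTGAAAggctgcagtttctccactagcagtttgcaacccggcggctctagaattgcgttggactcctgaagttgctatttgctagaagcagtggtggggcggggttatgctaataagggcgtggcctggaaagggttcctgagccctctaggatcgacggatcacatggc
Rsad2: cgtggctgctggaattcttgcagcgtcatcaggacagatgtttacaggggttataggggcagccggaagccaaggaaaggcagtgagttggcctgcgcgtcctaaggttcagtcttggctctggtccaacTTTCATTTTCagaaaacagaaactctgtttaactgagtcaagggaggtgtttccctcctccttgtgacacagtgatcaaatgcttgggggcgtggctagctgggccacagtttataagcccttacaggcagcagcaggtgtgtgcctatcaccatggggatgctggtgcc

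The core starts at bases 147 and 166 of the printed Ifit1 sequence, 95 and 129 of Ifit3, 121 and 127 of Bst2, where the 2 matches overlap, and 131 of Rsad2. Of the 15 genes of the list that rose, 10 had a promoter in the RefSeq table and 7 of them held the core (70.0%): these 4, Oas1a, Oas1g and Stat2. Over all tested members of the list, called or not, the core was in 14 of 31 promoters (45.2%). Irf7, Samd9l and Xaf1 had no match in this window. For Irf7 (minus strand) the window was chr7:141266375-141266674, and the gene position used here starts at 141266499. For Xaf1 (plus strand) it was chr11:72301379-72301678, with a gene start at 72301461. In both, much of the window lay inside the gene, and bases further upstream were not scanned. Among all 8455 tested genes with a promoter 313 held it (3.70%), among the 217 such genes that rose 20 (9.22%), and among the 363 that fell 15 (4.13%). A match to these letters is a description and not a measured binding site.

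Ifit1, which encodes an RNA-binding antiviral protein, was at 4.25 and 5.65, 78.8 and 33.4, and 16.2 and 35.0 FPKM. All irradiated libraries exceeded Control (2.61 ± 0.40, adjusted p = 0.0179, limma). Usp18, the protease that removes ISG15 from proteins, was at 2.53 and 5.02, 55.9 and 18.6, and 17.0 and 37.5 FPKM (2.68 ± 0.49, adjusted p = 0.0276). Rsad2 (viperin) rose by 2.49 ± 0.42, Rtp4 by 2.20 ± 0.29, Bst2 (tetherin) by 2.03 ± 0.37 and Irf7, the transcription factor that amplifies the response, by 1.92 ± 0.43. Isg15, the ubiquitin-like modifier, was at 10.2 and 33.4, 174 and 67.2, and 56.5 and 143 FPKM. It lay above Control in all irradiated libraries but did not pass (2.35 ± 0.59, adjusted p = 0.0619), and the Control libraries differed from each other by a wide margin. Samd9l, an interferon-induced antiviral factor, rose by 1.72 ± 0.29 but was at 26.1 and 18.5 FPKM in AIR against 4.75 and 6.72 in AIR_MPLA (AIR_MPLA minus AIR -1.79 ± 0.34, adjusted p = 0.0181). Of the list of genes induced by interferon gamma, GTPases and the transcription factor Irf1, none of 7 tested members passed in limma and 4 had an unadjusted p under 0.05; Irf1 lay below Control (-0.72 ± 0.18, adjusted p = 0.0605) and Gbp3 and Irgm1 above it. The Ifit and Oas genes lie in families of close copies, and reads may be shared among them. In the order given above, 2, 2, 1, 12, 18 and 9 interferon genes were called with 1 library left out. Ifit1 and Usp18 did not pass without Control replicate 2, Control replicate 3 or AIR replicate 1 (largest adjusted p 0.119 and 0.166), Rtp4 without either Control library (0.0590), and Samd9l without AIR replicate 1 or AIR_MPLA replicate 3 (0.0855).

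Glutathione transferases and other targets of NRF2, the transcription factor of the oxidant response, rose in part. Of 44 tested members 11 rose and none fell, 16 lay above Control and none below, with a median log2 difference of 0.30. Gsta3, a glutathione transferase, was at 2.93 and 2.69, 25.4 and 24.9, and 16.0 and 21.2 FPKM. The 4 irradiated libraries were close together and well above Control (2.57 ± 0.15, adjusted p = 0.00402, limma). Gsta2 rose from 2.08 and 2.21 FPKM to between 7.50 and 9.43 FPKM (1.59 ± 0.13, adjusted p = 0.00450), and Cbr3, a carbonyl reductase, from 2.02 and 3.43 FPKM to between 15.3 and 28.1 FPKM (2.60 ± 0.31, adjusted p = 0.00907). Mgst1, Akr1b8, Aldh1a1, Gsta1, Gsta4, Ephx1, Ugdh and Mgst2 rose as well, by 0.79 to 1.58. Nqo1, a classical NRF2 target, was at 46.3 and 47.8, 70.3 and 61.9, and 57.7 and 73.6 FPKM, above Control in each library, but did not pass (adjusted p = 0.103). Genes of the Gstm and Gstp classes behaved otherwise: Gstm3 was at 238 and 190.4, 86.7 and 104, and 227 and 399.6 FPKM, not on one side. The alpha-class genes are close copies of each other, so their separate values are uncertain. In fits without 1 library, 11, 10, 5, 9, 6 and 5 members were called.

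Of 35 tested genes in the list of cytochrome P450, glucuronyltransferase and sulfotransferase enzymes, which also holds their reductase Por and the regulators Ahr, Nr1i2 and Tiparp, 6 rose and 4 fell. Over all tested genes 2.60% rose and 4.58% fell. Sult1d1, among those that rose, and Cyp3a25, among those that fell, were not on one side. Sult1d1 was at 83.7 and 36.6, 337 and 336, and 76.0 and 73.5 FPKM. Cyp3a25 was at 41.3 and 31.7, 35.9 and 41.5, and 10.6 and 13.3 FPKM. Cyp2j6 went from 10.5 and 8.43 FPKM to between 20.3 and 24.8 FPKM (1.13 ± 0.15, adjusted p = 0.0118, limma). Cyp27a1, which hydroxylates sterols on the way to bile acids, rose by 1.14 ± 0.20 (adjusted p = 0.0265). Cyp2c66, of the Cyp2c cluster, was at 34.4 and 24.1, 3.72 and 4.60, and 2.33 and 6.18 FPKM. It was lower in all irradiated libraries (-2.57 ± 0.31, adjusted p = 0.00947), and its series-table Control value was 13.0 FPKM, still above them. Nr1h4, the bile acid receptor FXR, rose from 11.1 and 8.99 FPKM to between 20.8 and 30.3 FPKM (1.24 ± 0.14, adjusted p = 0.00788). With 1 library left out, the P450 counts were 4, 4, 2, 4, 2 and 1 higher and 1, 3, 1, 1, 1 and 3 lower; Cyp27a1 did not pass without any 1 of the irradiated libraries (largest adjusted p = 0.0670).

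Among genes of fatty acid use, 4 of 29 genes of fatty acid oxidation and ketogenesis rose and none fell, with a median of 0.05 over the list. Angptl4, a PPAR target that inhibits lipoprotein lipase, was at 4.07 and 2.09, 46.7 and 27.9, and 19.8 and 29.9 FPKM (2.95 ± 0.29, adjusted p = 0.00632, limma). Pdk4, which shuts pyruvate out of the citric acid cycle, was at 2.49 and 1.58, 52.2 and 22.7, and 8.93 and 13.3 FPKM (2.78 ± 0.33, adjusted p = 0.00941). Both rose in each irradiated library, and Pdk4 was lower in AIR_MPLA than in AIR (-1.58 ± 0.39, adjusted p = 0.0284). Acadl, a mitochondrial acyl-CoA dehydrogenase, rose from 84.1 and 63.9 FPKM to between 173 and 211 FPKM (1.42 ± 0.17, adjusted p = 0.00880). In lipid absorption 3 of 22 genes rose, Cd36 (1.59 ± 0.33), Fabp1 (0.96 ± 0.22) and Creb3l3 (0.87 ± 0.19), and 10 lay above Control. Npc1l1, the transporter of dietary cholesterol, was the 1 that fell, from 48.1 and 52.6 FPKM to between 18.3 and 40.8 FPKM (-0.84 ± 0.13, adjusted p = 0.0179, limma). This 1 fall among 22 genes is near the 4.58% of all tested genes called lower. After 1 library was left out, the oxidation count was 10, 3, 3, 4, 4 and 4, the absorption count 1, 5, 0, 1, 0 and 0 higher and 1, 1, 0, 1, 0 and 0 lower; Pdk4 did not pass without Control replicate 3 (adjusted p = 0.0724), Npc1l1 without AIR replicate 1, AIR_MPLA replicate 1 or AIR_MPLA replicate 3 (largest 0.0698), and Cd36 without any 1 library other than AIR replicate 3 (largest 0.153).

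Of 33 tested sterol and fatty acid synthesis genes 6 rose and 2 fell, beside 2.60% and 4.58% of all tested genes. The share that fell was near that of all tested genes. Mvd, among those that rose, was not on one side, at 11.9 and 14.9, 14.8 and 14.8, and 30.3 and 29.3 FPKM. Scd2, a stearoyl-CoA desaturase, was at 8.80 and 16.0, 48.8 and 28.4, and 89.6 and 79.0 FPKM (2.15 ± 0.28, adjusted p = 0.0118, limma). Fads1 and Fads2, the desaturases of polyunsaturated fatty acids, fell. Fads2 was at 70.5 and 88.5, 19.9 and 23.3, and 68.8 and 65.8 FPKM, so that both AIR libraries were far below Control and both AIR_MPLA libraries just below it (-1.03 ± 0.15, adjusted p = 0.0156). With 1 library left out, 6, 6, 1, 2, 3 and 3 genes rose and 2, 3, 1, 2, 2 and 1 fell; Fads2 did not pass without AIR replicate 1 or AIR_MPLA replicate 3 (largest adjusted p = 0.0632).

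Targets of p53 gave 7 rises and 1 fall among 42 tested genes, with 12 above Control, 2 below and a median of 0.29. The shares over all tested genes were 2.60% higher and 4.58% lower. Phlda3, which restrains AKT downstream of p53, was at 0.118 and 0.534, 9.51 and 4.32, and 4.73 and 6.84 FPKM. It was higher in every irradiated library (2.43 ± 0.30, adjusted p = 0.00969, limma). Plk3, a stress-activated kinase, rose by 1.01 ± 0.17 (adjusted p = 0.0208), and Plk2, Psrc1, Zmat3 and Eda2r rose by 0.66 to 1.09. Ccng1, cyclin G1, passed on the mean of the irradiated groups but was not on one side, at 22.7 and 13.9, 65.8 and 69.1, and 24.6 and 20.5 FPKM (AIR_MPLA minus AIR -1.54 ± 0.24, adjusted p = 0.0153; AIR_MPLA minus Control 0.32, adjusted p = 0.511). Cdkn1a, the cell cycle inhibitor p21, was at 36.0 and 68.4, 103 and 61.4, and 99.6 and 129 FPKM. AIR replicate 3 lay between the Control libraries, so Cdkn1a was not on one side, and it did not pass (0.92 ± 0.31, adjusted p = 0.116). Mdm2, which degrades p53, was at 4.06 and 3.51, 8.46 and 6.47, and 4.31 and 3.48 FPKM, with both AIR libraries above Control and the AIR_MPLA libraries near it; it did not pass (adjusted p = 0.151). Sesn1, a stress-induced sestrin, was the gene that fell, from 22.5 and 21.5 FPKM to between 8.61 and 15.8 FPKM (-0.84 ± 0.12, adjusted p = 0.0160). In fits without 1 library, 9, 8, 1, 4, 2 and 1 genes were called higher and 1, 3, 0, 1, 0 and 0 lower. Plk3 did not pass without AIR replicate 1 or AIR_MPLA replicate 3 (largest adjusted p = 0.0708), nor Sesn1 without these or AIR_MPLA replicate 1 (0.0800).

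Among the genes named here, 3 MHC class II genes, Cd74, H2-Eb1 and H2-Ab1, had the largest falls. Class II molecules present peptides to CD4 T cells and are made by crypt epithelium as well as by immune cells. Cd74, the invariant chain, was at 121 and 222, 18.9 and 15.4, and 11.7 and 10.8 FPKM. Every irradiated library was below both Control libraries (-3.47 ± 0.24, adjusted p = 0.00402, limma). H2-Eb1 (chr17:34305867-34316674) was at 24.1 and 42.8, 4.32 and 4.61, and 2.19 and 2.35 FPKM (-2.97 ± 0.22, adjusted p = 0.00402). H2-Ab1 fell by 2.96 ± 0.30 and H2-Aa by 2.60 ± 0.35 on the log2 scale, and in both AIR_MPLA was lower than AIR (-1.30 ± 0.34, adjusted p = 0.0331, and -1.32 ± 0.40, adjusted p = 0.0485). Of 11 tested genes of the list 6 fell, these 4 with H2-DMb1 and H2-DMa, and the count was 6 whichever library was left out. The regulators Rfx5, Rfxank and Rfxap and the lysosomal Ifi30 and Ctss did not pass. Summed markers of macrophages and dendritic cells were 40.0 and 38.1 FPKM in Control and 41.8 to 85.5 FPKM in irradiated libraries, most of it Ctss (35.7 and 29.8 against 33.5 to 73.0 FPKM), which is also counted among the class II genes. Itgam of the same markers lay below Control in all irradiated libraries, at 1.79 and 2.36 against 0.882 to 1.32 FPKM, and did not pass (adjusted p = 0.0585). Those of B and plasma cells were 4.14 and 10.7 against 1.00 to 3.32 FPKM, with Cd79a at 0.0346 and 1.66 FPKM in Control and at or below 0.0383 FPKM after irradiation. Cd79b and Jchain of that list also lay below Control in each irradiated library without passing, and the part of these cells in the class II falls was not tested. Of 28 genes of MHC class I presentation 6 fell and none rose. Psmb8, an immunoproteasome subunit, went from 79.3 and 113 FPKM to between 33.3 and 47.6 FPKM (-1.24 ± 0.21, adjusted p = 0.0211), with Psmb9 and Psmb10. The class I count was 6, 5, 0, 0, 1 and 1 with 1 library left out, and Psmb8 did not pass without AIR replicate 1 or AIR replicate 3 (largest adjusted p = 0.0777).

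Markers of T cells and intraepithelial lymphocytes were lower in irradiated crypts: 12 of 14 tested genes fell, all 14 lay below both Control libraries (13 also with the series-table values), and the median log2 difference was -1.27. Gzma, a granzyme, was at 53.3 and 75.3, 13.9 and 21.7, and 9.22 and 12.0 FPKM (-2.14 ± 0.23, adjusted p = 0.00674, limma). Ccl5, a chemokine of activated T cells, was at 46.9 and 83.1, 12.4 and 12.5, and 8.71 and 13.0 FPKM (-2.34 ± 0.25, adjusted p = 0.00674). In both genes the irradiated libraries lay apart from Control. The irradiated groups overlapped for Ccl5, whereas for Gzma both AIR libraries were above both AIR_MPLA libraries. Cd3e, a subunit of the T cell receptor complex, fell from 2.45 and 3.71 FPKM to between 0.329 and 0.569 FPKM (-1.49 ± 0.17, adjusted p = 0.00788), and Nkg7, Gzmb, Cd7, Cd3g, Cd8a, Itgae, Lck, Tyrobp and Lat fell likewise. Cd3e, Itgae, Lat and Lck were under 1 FPKM in every irradiated library. These genes were tested only through the Control libraries and had to be lower, so they add no support to the counts above. With 1 library left out 12, 10, 7, 10, 10 and 10 of them were called.

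**Figure D2:**
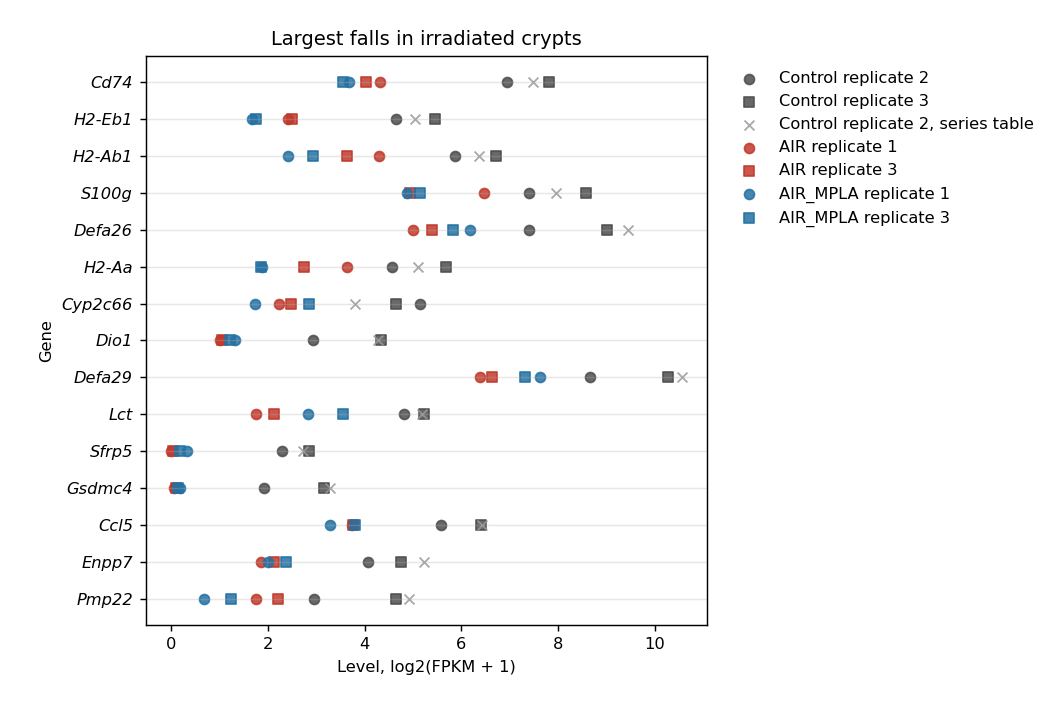
The 15 genes with the largest falls, with the level in each library as log2(FPKM + 1) on the horizontal axis and symbols as in the plot of the largest rises. All 4 irradiated libraries lie to the left of all Control values; Cd74 is between 10.8 and 18.9 FPKM in irradiated libraries and at 121 and 222 FPKM in Control.

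Most of the genes of crypt base stem cells fell. Of 23 tested members 14 fell and none rose, 20 lay below Control, and the median log2 difference was -0.87. Lgr5 (chr10:115450314-115587780), a receptor for R-spondins by which these cells are known, was at 4.22 and 3.56, 0.266 and 0.269, and 1.01 and 0.577 FPKM. All irradiated libraries were below Control (-1.70 ± 0.15, adjusted p = 0.00542, limma), the AIR libraries lowest; AIR_MPLA minus AIR was 0.49 ± 0.18 and did not pass (adjusted p = 0.0766). Olfm4, a secreted glycoprotein of the same cells, was at 723 and 542, 91.0 and 245, and 303 and 199.7 FPKM. It fell by 1.70 ± 0.40 on the log2 scale with an adjusted p of 0.0498, just under the threshold, and passed only without AIR replicate 3 when 1 library was left out (largest adjusted p = 0.214). Smoc2, Ascl2, Rgmb, Cdca7, Prom1, Sox9, Cdk6, Tnfrsf19, Msi1, Rnf43 and Ephb2 also fell, by 0.68 to 1.51. Cd44 was at 6.40 and 4.57, 6.12 and 4.07, and 6.15 and 5.50 FPKM, with a difference of -0.01 ± 0.19. In 10 of the 23 genes AIR_MPLA was above AIR by the test, Axin2 among them (13.3 and 16.2, 2.95 and 4.26, and 8.91 and 7.52 FPKM), and in none below. After 1 library was left out, 15, 11, 3, 9, 8 and 2 stem cell genes were called.

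Wnt signalling maintains these stem cells, and 9 of 24 tested Wnt pathway genes fell with none rising and a median of -0.52. Sfrp5, a secreted Wnt inhibitor, was at 3.86 and 6.17, 0 and 0.0342, and 0.258 and 0.141 FPKM, near 0 in every irradiated library (-2.42 ± 0.18, adjusted p = 0.00402, limma). Sfrp5 was tested only through the Control libraries, so it had to be lower. Ccnd1, cyclin D1, went from 40.0 and 50.7 FPKM to 15.1 and 11.7 in AIR and 24.9 and 24.6 in AIR_MPLA (-1.26 ± 0.16, adjusted p = 0.0104). Myc was called lower by the test (adjusted p = 0.0306) but was not on one side, with 8.88 and 8.98 FPKM in AIR but 22.4 and 19.3 FPKM in AIR_MPLA against 21.9 FPKM in Control replicate 2. The genes of the transcriptional effectors Ctnnb1 and Tcf7l2 and the receptor gene Lgr4 did not pass. In the Notch pathway, which keeps progenitors from the secretory fate, 4 of 18 genes fell: Hes1 (-0.95 ± 0.16), Lfng, Nrarp and Notch1. In the BMP pathway, which opposes stemness, 3 of 14 fell: Smad6 (-1.33 ± 0.17), Bmp7 and Acvr1. With 1 library left out the Wnt count was 9, 10, 3, 6, 5 and 4, the Notch count 4, 5, 0, 3, 0 and 0, and the BMP count 5, 2, 0, 1, 1 and 1; Hes1 did not pass without AIR replicate 1, AIR_MPLA replicate 1 or AIR_MPLA replicate 3 (largest adjusted p = 0.0725) and Smad6 not without AIR replicate 1 (0.0560).

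Some genes of the cell cycle fell. Of 53 DNA replication and S phase genes 18 fell and none rose, with 32 below Control and a median of -0.49; of 46 mitosis genes 9 fell and none rose, with 27 below and a median of -0.44. Mcm2, of the replicative helicase, was at 20.9 and 23.9, 8.09 and 8.25, and 18.6 and 17.7 FPKM (-0.82 ± 0.12, adjusted p = 0.0175, limma). Aurkb, the kinase of the chromosomal passenger complex, was at 17.2 and 21.6, 7.74 and 7.72, and 14.7 and 13.7 FPKM (-0.82 ± 0.14, adjusted p = 0.0220). In both genes the AIR libraries were lowest and the AIR_MPLA libraries lay between them and Control. AIR minus Control was -1.35 for Mcm2 and -1.22 for Aurkb (adjusted p = 0.00538 and 0.00734, limma). AIR_MPLA minus Control was -0.29 and -0.42 and did not pass (adjusted p = 0.371 and 0.266, limma). Mki67, the common marker of cycling cells, was at 34.6 and 13.6, 14.8 and 15.3, and 12.6 and 9.78 FPKM. The Control libraries lay far apart, with the irradiated ones near the lower of them, and Mki67 neither lay on one side nor passed (-0.71 ± 0.33, adjusted p = 0.229). Of 39 DNA repair genes 6 fell and none rose, with 23 below Control; H2afx, the histone phosphorylated at DNA breaks, was at 96.2 and 119, 27.6 and 33.2, and 84.7 and 88.5 FPKM (-1.05 ± 0.15, adjusted p = 0.0158). Without 1 library, the S phase count was 25, 13, 0, 5, 0 and 0, the mitosis count 15, 15, 0, 1, 0 and 0, and the repair count 5, 12, 0, 1, 1 and 0. Mcm2 did not pass without AIR replicate 1, AIR_MPLA replicate 1 or AIR_MPLA replicate 3 (largest adjusted p = 0.0823), Aurkb without any 1 of the irradiated libraries (0.0950), and H2afx without AIR replicate 1 or AIR_MPLA replicate 3 (0.0627).

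**Figure D3:**
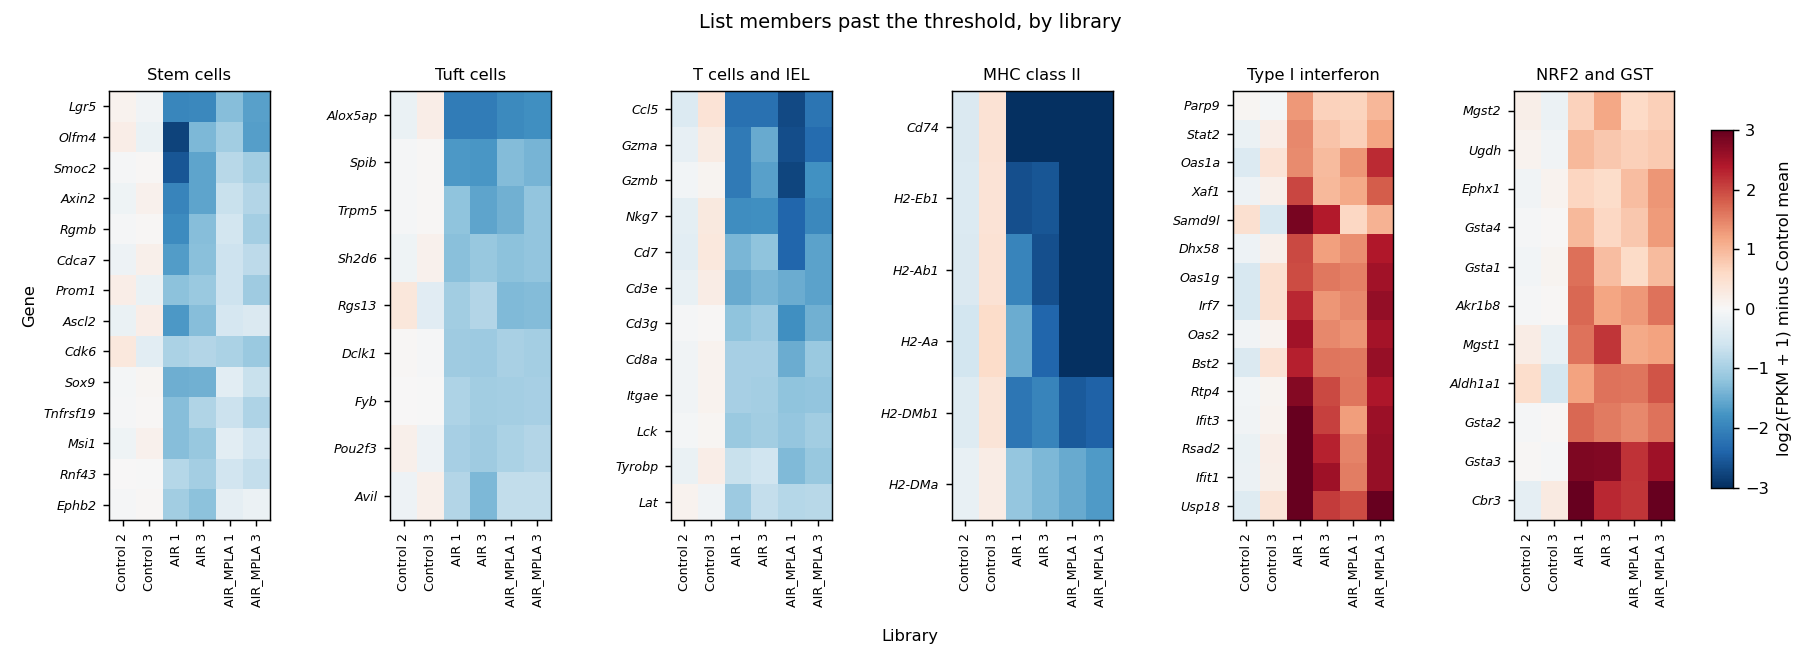
Genes past the threshold that are reported here from 6 lists (rows) in each library (columns), coloured by log2(FPKM + 1) minus the mean of the Control libraries; differences past 3 in either direction take the end colours, IEL stands for intraepithelial lymphocytes and GST for glutathione transferases. Members of the first 4 lists are blue, and those of the last 2 red, in all 4 irradiated libraries; several stem cell genes, such as Axin2 (2.95 and 4.26 FPKM in AIR, 8.91 and 7.52 in AIR_MPLA), are paler in AIR_MPLA.

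Most markers of tuft cells, which are rare chemosensory cells, fell: 10 of 12 tested markers fell, none rose, and 11 lay below Control, with a median of -1.09. Alox5ap, needed for leukotriene synthesis, was at 4.76 and 6.55, 0.538 and 0.546, and 0.763 and 0.835 FPKM, far lower in every irradiated library (-1.98 ± 0.15, adjusted p = 0.00442, limma). The tuft cell factor Pou2f3, the channel Trpm5 and Dclk1 fell as well. Alox5ap is also expressed by leukocytes. All 10 markers that fell were under 1 FPKM in every irradiated library. They were tested only through the Control libraries and had to be lower, so the count of falls supports nothing. In fits without 1 library 10, 9, 7, 8, 8 and 8 tuft genes were called.

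Of 22 tested Paneth cell genes 7 fell and 13 lay below Control, with a median of -1.65 and wide gaps between the Control libraries. Defa29, an alpha-defensin, was at 405 and 1229.9, 82.6 and 98.1, and 195 and 158 FPKM (-2.48 ± 0.41, adjusted p = 0.0206, limma), and Defa26 fell by 2.61 ± 0.41 (adjusted p = 0.0186). Lyz1, the Paneth cell lysozyme, was at 2890.5 and 9079, 1341 and 1556, and 2575 and 1919 FPKM. It lay below Control in each irradiated library but did not pass (-1.51 ± 0.44, adjusted p = 0.0817). Alpha-defensin genes are near-identical copies, so their separate values are uncertain. The number of Paneth genes called lower was 22 with Control replicate 2 taken from the series table, under which 44.7% of all genes were called in either direction, and 19, 8, 0, 0, 4 and 3 with 1 library left out; Defa26 and Defa29 did not pass without AIR replicate 1 or AIR replicate 3 (largest adjusted p 0.0783 and 0.0842). Of 22 goblet cell genes 1 fell, Clca1 (-1.33 ± 0.27, adjusted p = 0.0348), a call lost without Control replicate 2, Control replicate 3, AIR_MPLA replicate 1 or AIR_MPLA replicate 3. The 1 fall among 22 goblet cell genes is a share near the 4.58% of all tested genes called lower. Muc2, the main gel-forming mucin, was at 43.2 and 35.6, 29.5 and 19.1, and 58.8 and 60.2 FPKM. The AIR libraries were below and the AIR_MPLA libraries above Control, and the joint difference was -0.06 ± 0.19 (adjusted p = 0.892), with its sign turning under several settings. None of 16 enteroendocrine genes passed in limma, and 5 had an unadjusted p under 0.05.

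Among absorptive functions, 4 of 24 brush border enzymes fell and none rose. For this count and the transport count below, the shares over all tested genes were 4.58% lower and 2.60% higher. Lct, lactase, was at 27.2 and 36.4, 2.38 and 3.36, and 6.12 and 10.8 FPKM (-2.45 ± 0.24, adjusted p = 0.00619, limma), and Enpp7, the intestinal alkaline sphingomyelinase, fell from 15.7 and 26.1 FPKM to between 2.61 and 4.18 FPKM (-2.32 ± 0.23, adjusted p = 0.00619). S100g, the vitamin D-dependent calcium carrier calbindin-D9k, was at 168 and 379.7, 87.9 and 29.8, and 28.5 and 34.3 FPKM (-2.63 ± 0.47, adjusted p = 0.0259), and Vdr, the vitamin D receptor, fell by 0.73 ± 0.13 (adjusted p = 0.0277). Dio1, which deiodinates thyroid hormone, went from 6.59 and 19.1 FPKM to between 1.01 and 1.48 FPKM (-2.49 ± 0.35, adjusted p = 0.0142). Clca3b, a calcium-activated chloride channel regulator, was at 191 and 225, 20.9 and 32.0, and 112 and 74.4 FPKM (-2.07 ± 0.23, adjusted p = 0.00788); with it 5 of 31 ion and fluid transport genes fell and 2 rose. Guca2b, uroguanylin, which drives fluid secretion, was 1 of those that rose, from 387 and 470.0 FPKM to between 711 and 1187 FPKM (1.08 ± 0.17, adjusted p = 0.0197). Without 1 library, the brush border count was 3, 3, 1, 3, 1 and 1, and the transport counts 3, 5, 4, 4, 2 and 1 lower and 4, 4, 0, 1, 0 and 0 higher. S100g did not pass without either Control library (largest adjusted p = 0.155), Vdr without any 1 of the irradiated libraries (0.119), Dio1 without AIR replicate 1 (0.0666), and Guca2b without AIR replicate 1, AIR_MPLA replicate 1 or AIR_MPLA replicate 3 (0.0962).

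In mucosal defence, 2 of 24 genes rose and 2 fell, beside 2.60% and 4.58% of all tested genes. Lcn2, an iron-scavenging lipocalin, was at 1.51 and 3.56, 17.5 and 13.2, and 26.7 and 19.0 FPKM, higher in all irradiated libraries (2.53 ± 0.27, adjusted p = 0.00674, limma), and Saa3, serum amyloid A3, rose by 1.31 ± 0.28. Saa3 was under 1 FPKM in both Control libraries, so it was tested only through the irradiated ones, where it had to be higher. Pigr, the receptor that carries IgA into the lumen, fell from 1112 and 921 FPKM to between 329 and 657 FPKM (-1.04 ± 0.18, adjusted p = 0.0231). Lcn2 and Saa3 are also made by neutrophils, and summed neutrophil markers were higher in irradiated libraries, as given above. Ly6g was at 0 in both Control libraries and at 5.56, 0.751, 0 and 0.650 FPKM in the irradiated ones, S100a8 was listed at 0 in Control and at 1.63, 1.45, 0 and 0.220 FPKM (adjusted p = 0.0289, limma), and Mpo and Elane were at 0 in every library. S100a8, like Saa3, was tested only through irradiated libraries and had to be higher. The part of neutrophils in the rises of Lcn2 and Saa3 was not tested. Gsdmc4 and Gsdmc2, pore-forming gasdermins, fell by 2.41 ± 0.31 and 1.73 ± 0.17 on the log2 scale, and Tnfsf10, the death ligand TRAIL, by 1.24 ± 0.21; no cell death gene of the 29 rose. Tlr4, the receptor that MPLA acts on, was at or below 0.240 FPKM in all libraries and was not tested, and 2 of 33 genes of the TLR4 pathway and NF-kB feedback passed, Tlr1 (-0.74 ± 0.13) and Nfkbiz (-0.77 ± 0.15), both lower, a share near the 4.58% of all tested genes called lower. Leaving out 1 library gave 1, 5, 1, 3, 2 and 2 defence genes higher and 3, 1, 1, 2, 1 and 1 lower, 3, 3, 1, 3, 3 and 2 cell death genes lower, and 4, 2, 0, 0, 0 and 0 genes of the TLR4 list lower. Saa3 did not pass without Control replicate 2, Control replicate 3, AIR replicate 1 or AIR replicate 3 (largest adjusted p = 0.133), Pigr without AIR replicate 1, AIR_MPLA replicate 1 or AIR_MPLA replicate 3 (0.102), and Gsdmc4 without AIR replicate 1 (0.0577).

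Several groups showed no gene past the limma test. They were the 87 cytosolic ribosomal proteins (median 0.02, 3 below Control and none above), the 74 nuclear-encoded respiratory chain subunits (median -0.03), the 26 genes of the unfolded protein response (0.03), the 20 aminoacyl-tRNA synthetases (-0.14), the 23 tight and adherens junction genes (-0.17) and the 8 YAP and TEAD targets (-0.08). At an unadjusted p under 0.05 stood 0 ribosomal, 3 respiratory chain, 2 unfolded protein response, 4 synthetase, 4 junction and 0 YAP and TEAD genes. Failing the test does not show that they did not change. With Control replicate 2 from the series table, the counts were 1 higher and 2 lower for ribosomal proteins, 1 and 16 for the respiratory chain, 1 and 7 for the unfolded protein response, 1 and 8 for synthetases, 1 and 5 for junctions, and 1 and 0 for YAP and TEAD targets.

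**Figure D4:**
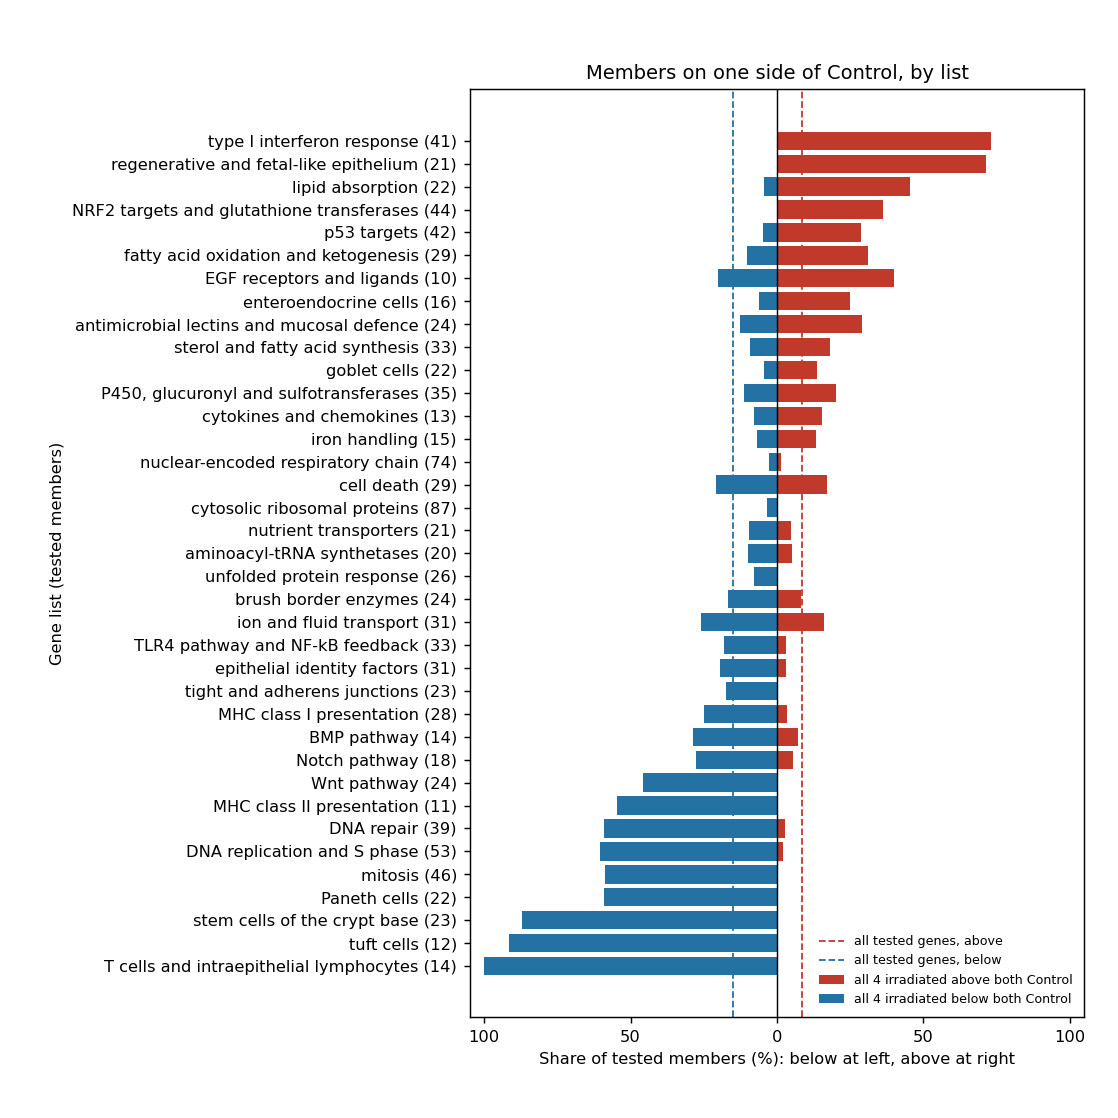
Share of the tested members of each list, with at least 10 tested, for which all 4 irradiated libraries were above (red, to the right) or below (blue, to the left) both Control libraries; dashed lines mark the shares over all tested genes, 8.43% above and 15% below. Type I interferon genes (30 of 41 above) stand at the top and markers of T cells and intraepithelial lymphocytes (14 of 14 below) at the bottom.

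Whether the 748 genes, called on the mean of both irradiated groups, differed between these groups was asked by comparing AIR_MPLA with AIR. The difference itself uses no Control library, but its SE and p-value rest on a spread shared by all 3 groups, Control included. Against the same Control libraries, AIR alone gave 2786 calls (26.7%) and AIR_MPLA alone 154 (1.48%), so a gene called on the mean need not have passed in each group. This test called 3060 of all 10415 genes (29.4%), 2029 higher (19.5%) and 1031 lower (9.90%) in AIR_MPLA. Among the 271 genes higher in irradiated crypts, AIR_MPLA was below AIR in 63 (23.2%) and above it in 10 (3.69%), and 198 did not pass. Among the 477 genes lower in irradiated crypts, AIR_MPLA was above AIR in 220 (46.1%) and below it in 10 (2.10%), and 247 did not pass. Ttyh3, a chloride channel-like protein, was at 14.1 and 15.3, 3.02 and 3.67, and 12.9 and 12.0 FPKM (AIR_MPLA minus AIR 1.63 ± 0.15, adjusted p = 0.0153, limma). Ptms, parathymosin, was at 109 and 137, 24.1 and 25.8, and 66.3 and 81.1 FPKM (1.52 ± 0.18, adjusted p = 0.0153). In both genes AIR_MPLA lay between AIR and Control. Adra2a, an adrenergic receptor, and Clca3b had differences of 1.68 ± 0.25 and 1.78 ± 0.27. On the other side, Cd36, a fatty acid transporter, was at 2.95 and 1.44, 25.5 and 11.3, and 3.89 and 3.80 FPKM (-1.90 ± 0.38, adjusted p = 0.0194), and Gimd1, with a GTPase domain of the GIMAP type, at 8.83 and 6.50, 30.6 and 41.9, and 10.7 and 9.36 FPKM (-1.74 ± 0.21, adjusted p = 0.0153). Slfn4, a member of the Schlafen family, showed -1.84 ± 0.39, and Rab30, a small GTPase of the Golgi, -1.53 ± 0.36; both had risen over Control. No gene passed in AIR_MPLA against AIR when any 1 irradiated library was left out (limma), with 2457 to 3665 genes at an unadjusted p under 0.05. The GC correction gave 1229 and leaving out Control replicate 2 or Control replicate 3 gave 4893 or 4890. The test did not separate the irradiated groups for several leading genes, Ly6a, S100a6, Gsta3, Cbr3 and Cd74 (adjusted p = 0.454, 0.650, 0.0961, 0.906 and 0.158).

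**Figure D5:**
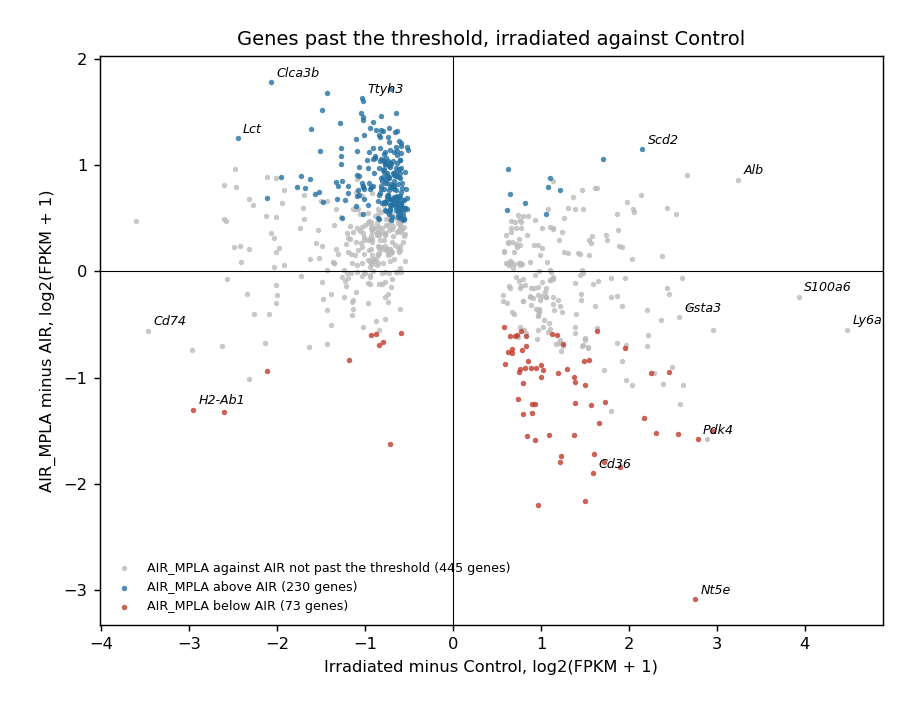
The 748 genes past the threshold, by the log2(FPKM + 1) difference of irradiated crypts from Control (horizontal) and of AIR_MPLA from AIR (vertical); blue and red mark genes for which AIR_MPLA was above or below AIR by the test. Most blue points (220 of 230) are genes lower in irradiated crypts, and most red points (63 of 73) are genes higher in them; Nt5e, at -3.08, lies lowest.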

How the data were processed

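Total RNA of intestinal crypts was sequenced from TruSeq libraries, per the labels' protocols. The submitters' processing notes name Trimmomatic, HISAT2, Cufflinks and HTSeq, without versions, and the build GRCm38.p6. The deposited values are FPKM computed by the authors, one file per sample and a series table of 6 columns; a header that reads as counts holds FPKM too. The read depth is unknown, so no interval or detection limit could be derived from it, and strand use in counting is not given in the sources used here.

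Genes that reached 1 FPKM in at least 2 of 6 libraries were tested on log2(FPKM + 1) with limma 3.58.1 (R 4.3.3; trend and robust empirical Bayes), with 3 group means and 3 residual degrees of freedom; all limma tests are two-sided and adjusted by Benjamini-Hochberg over all tested genes, and ± gives SE. The contrast set the mean of the AIR and AIR_MPLA means against Control. Control replicate 2 was taken from its own file, and the series-table column with its number was an alternative. Values of genes with close copies, overlapping genes and antisense partners are uncertain. Tests on simulated data with 200 changed genes among 10415 recovered 38% of 2-fold changes with 2 false calls and 86% of 4-fold changes with 6 for irradiated crypts against Control. The changed genes had a mean log2(FPKM + 1) above 2 and the same change in every irradiated library. Recovery at lower levels, or with AIR and AIR_MPLA apart, was not tested.

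The members and the gene lists were chosen with earlier results of these data known. The lists come from general knowledge and are described by counts and medians only. Genes named are a set of 11 markers whether or not they passed; the 15 largest rises and falls among called genes on one side with both value sets, at least 5 FPKM on the higher side and without predicted genes; the 2 called genes with the smallest p per list with at least 3 called, and 1 in the other direction; and the 5 largest differences each way between AIR_MPLA and AIR among called genes. This leaves out the predicted gene Gm15292, which fell by 3.61 on the log2 scale. Other genes named in the text were chosen after their values were seen. A few genes are counted in their lists but not reported here. Replicate numbers were not taken to pair samples: the difference between replicates 1 and 3 correlated at -0.33 over genes between AIR and AIR_MPLA, and the labels name no shared batch. Alternatives covered scaling, filter, pseudocount, GC correction, series-table values, 1 irradiated group, a replicate block and leaving out each library.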

Additional observations from a re-analysis of the deposited data

Results flagged for a closer look

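Of the named genes, 34 differed between AIR_MPLA and AIR by the limma test, which called 29.4% of all tested genes. No library had MPLA without irradiation, so whether the effect of irradiation itself differed was not tested. Differences are log2(FPKM + 1), AIR_MPLA minus AIR. Among genes of division and stem cells the difference was 1.01 for Axin2, 0.85 for Ccnd1, 0.77 for Hes1, 1.06 for Mcm2, 0.65 for Uhrf1, 0.80 for Aurkb, 0.68 for Bub1b, 0.72 for Msh6 and 1.49 for H2afx, so that AIR_MPLA was above AIR in each. Among genes of lipid handling it was 1.24 for Fads1, 1.60 for Fads2, 1.15 for Scd2, 0.97 for Npc1l1, -1.90 for Cd36 and -1.58 for Pdk4. Among epithelial and transport genes it was 1.29 for Muc2, 1.25 for Lct, 1.16 for Naaladl1, 1.78 for Clca3b, 1.68 for Adra2a, 0.54 for Vdr, 0.83 for Pigr, 1.63 for Ttyh3 and 1.52 for Ptms. Among immune and interferon genes it was 0.80 for Psmb10, -1.32 for H2-Aa, -1.30 for H2-Ab1, -1.79 for Samd9l and -1.84 for Slfn4. AIR_MPLA was also below AIR for Nt5e (-3.08), Gimd1 (-1.74), Rab30 (-1.53), Anxa10 (-1.50) and Sesn1 (-0.69). No call of this comparison held when any 1 irradiated library was left out, with 2457 to 3665 genes at an unadjusted p under 0.05 in those fits.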

How the results depend on the processing

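The 748 calls against Control became 662 with median-ratio scaling (328 higher, 334 lower), 733 with upper-quartile scaling, 737 with a pseudocount of 0.1 and 1206 with GC correction (624 higher, 582 lower, 707 of the 748 shared). They became 485 with no filter, 467 with a filter of 5 FPKM, 108 with irradiated libraries as 1 group, 4654 with Control replicate 2 taken from the series table (series-table values), and 171 to 1414 with 1 library left out. Median-ratio scaling moved the median log2 difference of all genes from -0.07 to 0.01. The replicate block, with 1 residual degree of freedom, left 76 calls. With crossed numbers, chosen after seeing the data and with Control in no block, it left 579. Also chosen after seeing the data, the series-table values gave 3687 calls with GC correction and 4504 with median-ratio scaling.

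Genes on one side were 3140 with GC correction (1538 above, 1602 below), 2467 with median-ratio scaling (1166 above, 1301 below), 3861 with no filter, 1512 with a filter of 5 FPKM, 4146 with the series-table values (4571 with GC correction, 4275 with median-ratio scaling) and 2668 to 4913 with 1 library left out. AIR_MPLA against AIR gave 1181 calls with no filter, 1229 with GC correction, 5739 with the series-table values, 5414 with these and median-ratio scaling, and 0 to 4893 with 1 library left out, where 0 means limma calls without any 1 irradiated library, with 2457 to 3665 genes at an unadjusted p under 0.05. Among genes called against Control it gave 303, then 96 with no filter, 3344 with the series-table values (1913 with GC correction, 3121 with median-ratio scaling), 38 with the replicate block, 174 with crossed numbers, and 0 to 1019 with 1 library left out. Except where a setting drops samples or genes, the cause of these shifts was not tested.

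Of 83 named genes past the threshold, 83 kept the call and direction with GC correction and with the series-table values, 82 with median-ratio scaling, 61 with no filter, 27 with irradiated libraries as 1 group, 20 with the replicate block, and 44 to 70 with 1 library left out. Muc2, which did not pass, turned from -0.06 to 0.04 with median-ratio scaling, 0.06 with the series-table values (0.24 with GC correction, 0.11 with median-ratio scaling), 0.07 with GC correction, and -0.20 to 0.09 with 1 library left out. Epcam, which did not pass either, turned to 0.03 with the series-table values and GC correction. With 2 libraries per group and depth unknown, what low genes can show is limited.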

Other observations

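Further sets of genes were chosen after their values had been seen. Of 16 tested circadian clock genes 1 rose and 1 fell, shares near those of all tested genes (2.60% higher, 4.58% lower). Dbp, a clock-driven transcription factor, was at 11.2 and 15.7 FPKM in Control, 1.77 and 2.25 in AIR and 3.02 and 2.68 in AIR_MPLA, lower in every irradiated library (-2.07 ± 0.17, adjusted p = 0.00450, limma). Npas2, a partner of the clock activator BMAL1, was between 1.07 and 1.19 FPKM in Control and between 1.78 and 3.01 in irradiated libraries (0.72 ± 0.16, adjusted p = 0.0451). Nr1d1, the clock repressor REV-ERB alpha, lay below Control in each irradiated library but did not pass (-1.12 ± 0.28, adjusted p = 0.0632). The hour at which crypts were collected is not given in the sources used here, and its part in these values was not tested.

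Of 13 tested hepatocyte genes 7 were called higher, and all 7 were under 1 FPKM in both Control libraries and so were tested only through the irradiated ones, where they had to be higher; the count supports nothing. Besides Alb, Trf, the iron carrier transferrin, was at 0.231 and 0.492 FPKM in Control and between 0.932 and 2.92 in irradiated libraries. Ahsg and Serpina3k, plasma proteins made in the liver, were listed at 0 in both Control libraries and lay between 0.504 and 2.44 FPKM and between 0.908 and 2.69 FPKM in irradiated ones. AIR replicate 1 was the lowest irradiated library for these genes, whereas it was the highest for Ambp of the same set (3.53 against 1.58 to 1.61 FPKM).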
